A study of Homo sapiens with 4 samples.

Results

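The 1700 windows described here lay in 7 imprinted gene domains of the human genome (hg19), out of 956365 windows of 500 bp in a deposited table of sequenced, enriched DNA. They were defined by position and not by measured values, although the domains were proposed with earlier results of these data known. The H19-KCNQ1 domain (chromosome 11, 1950001 to 2950000) held 1037 of them, the MEG3 domain (chromosome 14, 101100001 to 101600000) 369 and the SNRPN domain (chromosome 15, 23800001 to 25700000) 112. The GNAS domain (chromosome 20, 57380001 to 57500000) held 80, the PLAGL1 domain (chromosome 6, 144220001 to 144420000) 48, the MEST domain (chromosome 7, 130050001 to 130200000) 28 and the PEG10 domain (chromosome 7, 94200001 to 94330000) 26.

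The study asked how TET1, the enzyme that oxidises 5-methylcytosine to 5-hydroxymethylcytosine (5hmC), acts on genes under hypoxia in FADU cells, an epithelial cell line of a hypopharyngeal squamous carcinoma. DNA was taken from 4 conditions with 1 library each: scrambled control cells in normoxia, TET1-si cells in normoxia, scrambled control cells after 18 h in 1% O2, and TET1-si cells after 19 h in 1% O2. TET1-si is the knockdown of TET1. The sources differ on the captured mark, since the titles name hydroxymethylated DNA, the labelled protocol names an antibody to 5-methylcytidine and the methods describe chemical labelling of 5hmC. Here a window is called listed when it is in the table. The names of the 4 columns of values match no condition, so the values were not used. A listed window does not tell which condition had reads there, and a window that is not listed may still have had some.

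An imprinted gene is expressed mainly from the copy inherited from the mother or mainly from the copy inherited from the father. The choice rests on control regions that carry CpG methylation on the copy of a single parent, and a long noncoding RNA often starts at such a region or close to it. The control region upstream of H19 is methylated on the paternal copy, and the insulator protein CTCF binds the unmethylated maternal copy. The starts of KCNQ1OT1, SNRPN and SNURF, PEG10, MEST and PLAGL1 are methylated on the maternal copy, whereas the MEG3 start is methylated on the paternal copy. The parental origin of expression given for each gene is that of fixed gene lists. It was not measured in these cells.

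The sequences at the control regions are shown first, because the listed windows can be read against their letters. The 5 matches to the CTCF core upstream of H19 are given with 8 bases on each side, 5′ to 3′, from GRCh37, which has the coordinates of hg19 here. Capitals mark the core (CCGC, any 2 bases, GG, any base, GGCAG, searched on both strands).
H19 control region match a, core at chr11:2021198-2021211, minus strand: ggaagtggCCGCGCGGCGGCAGtgcaggct
H19 control region match b, core at chr11:2022010-2022023, minus strand: ggaagtggCCGCGTGGCGGCAGtgcaggct
H19 control region match c, core at chr11:2023443-2023456, minus strand: aaaagtggCCGCGCGGCGGCAGtgcaggct
H19 control region match d, core at chr11:2023844-2023857, minus strand: ggaagtggCCGCGCGGCGGCAGtgcaggct
H19 control region match e, core at chr11:2024249-2024262, minus strand: agaagtggCCGCGCGGCGGCAGtgcaggct
The other 5 matches in the domains stood apart from that region. Of these, 3 that lay near CDKN1C, KCNQ1OT1 or MAGEL2 are given in the same way.
match upstream of CDKN1C, core at chr11:2907620-2907633, minus strand: gcagcaggCCGCGCGGGGGCAGccgaagac
match inside KCNQ1OT1, core at chr11:2685760-2685773, plus strand: ggcccaaaCCGCCTGGCGGCAGgggtgtgg
match beside MAGEL2, core at chr15:23887738-23887751, plus strand: ctaatctgCCGCTAGGTGGCAGgagaattc

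The 300 bases upstream of 3 starts that control or belong to a domain follow, on the strand of the gene. No exon is annotated in these stretches. Capitals mark TGCCGC or its reverse complement GCGGCA, the letters bound by ZFP57, a zinc finger protein that keeps methylation at imprinted control regions. A match is a description of the letters and not a bound site.
MEG3, chr14:101292135-101292434, plus strand: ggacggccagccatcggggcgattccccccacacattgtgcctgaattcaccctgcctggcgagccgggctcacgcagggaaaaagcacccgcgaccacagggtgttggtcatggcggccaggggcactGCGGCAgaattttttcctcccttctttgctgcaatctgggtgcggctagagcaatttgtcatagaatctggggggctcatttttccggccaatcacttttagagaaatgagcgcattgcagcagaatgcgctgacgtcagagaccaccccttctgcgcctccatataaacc
SNRPN, chr15:25199782-25200081, plus strand: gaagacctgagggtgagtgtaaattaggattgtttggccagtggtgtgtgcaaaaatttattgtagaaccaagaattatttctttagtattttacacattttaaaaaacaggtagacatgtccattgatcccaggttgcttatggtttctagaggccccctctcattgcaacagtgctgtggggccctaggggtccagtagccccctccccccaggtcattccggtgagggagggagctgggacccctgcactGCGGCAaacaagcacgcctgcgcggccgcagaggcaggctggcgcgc
NDN, chr15:23932453-23932752, minus strand: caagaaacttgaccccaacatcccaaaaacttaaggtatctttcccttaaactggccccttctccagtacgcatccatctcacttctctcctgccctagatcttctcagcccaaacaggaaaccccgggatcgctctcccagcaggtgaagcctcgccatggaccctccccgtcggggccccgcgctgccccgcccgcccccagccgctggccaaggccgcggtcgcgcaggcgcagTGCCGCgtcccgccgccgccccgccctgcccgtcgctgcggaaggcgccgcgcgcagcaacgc
The stretch upstream of MEG3 had 16 CpG sites and 1 match, that upstream of SNRPN 8 and 1, and that upstream of NDN 30 and 1. The windows they lie in were not listed. These 3 are shown because they hold a match. The stretches without an exon upstream of H19 and GNAS-AS1, with 11 CpG sites each, had 0 matches, and that of GNAS-AS1 reached into a listed window.

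Of the 7909 windows of the domains without an undetermined base, 21.5% were listed, against 17.6% of all autosomal windows. The domains are richer in CpG sites than the autosomes (6.92 against 4.97 per window), so each share was set beside the share predicted from autosomal windows of the same CpG number and GC content. The predicted share was 26.1%, which gave a ratio of 0.824 (95% Wilson interval 0.79 to 0.859). The intervals treat windows as independent, which neighbouring windows are not, and they cover counting error only. The ratio over all domains rested on 2 of them, which moved it in opposite directions. Without the SNRPN domain it was 1.09, and without the H19-KCNQ1 domain it was 0.573.

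The SNRPN domain had the lowest share and the H19-KCNQ1 domain the highest. In the SNRPN domain 2.95% of 3800 windows were listed (interval 2.46 to 3.53), against a predicted 16.1%. In the H19-KCNQ1 domain the share was 51.9% of 2000 windows (49.7 to 54), against 45.3%. These intervals leave out the predicted shares. In the other 5 domains they include them. The MEG3 domain had 36.9% of 1000 windows listed and a ratio of 1.03 (0.946 to 1.11), and the GNAS domain 33.3% of 240 and 1.17 (0.97 to 1.39). The PLAGL1 domain had 12% of 400 and 0.822 (0.629 to 1.07), the PEG10 domain 10% of 260 and 1.05 (0.726 to 1.5), and the MEST domain 13.4% of 209 and 0.831 (0.585 to 1.16).

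**Figure D1:**
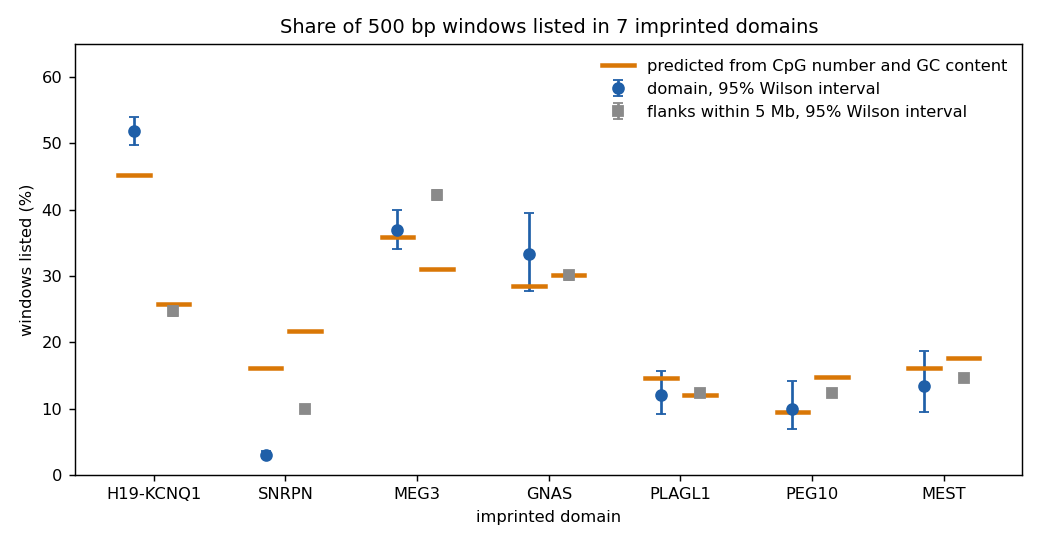
Share of 500 bp windows listed (y axis, %) in each of the 7 domains (circles) and in its flanks within 5 Mb (squares), with 95% Wilson intervals; the bars give the share predicted from CpG number and GC content. The SNRPN domain lies at 2.95% below a predicted 16.1%, and its flanks lie at 9.96% below a predicted 21.7%.

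The flanks within 5 Mb differed from the autosomes as well. Around the SNRPN domain 9.96% of windows were listed, a ratio of 0.459 (0.438 to 0.481), so the domain was lower still than its surroundings. Of the 50-base sequences of these flanks 66.3% occur once in the genome, against 88.2% in the domain. Autosomal windows in which most such sequences occur more than once had a ratio of 0.134. How far this lowers the ratio of the flanks was not tested. In windows of unique sequence alone the domain had a ratio of 0.164. The rest of chromosome 15 had a ratio of 1.19. Around the H19-KCNQ1 domain the ratio was 1.31 in the flank toward the end of the chromosome and 0.62 in the flank on the other side, and the domain at 1.14 lay between them. The MEG3 domain, with a ratio of 1.03, lay below its flanks (1.36) and below the rest of chromosome 14 (1.79). The flanks of the GNAS, PLAGL1, PEG10 and MEST domains had ratios of 1, 1.01, 0.839 and 0.828, and the interval of each of these domains includes the ratio of its flanks.

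In the H19-KCNQ1 domain the listed windows were dense around H19 and CDKN1C and sparse inside KCNQ1OT1. H19, a maternally expressed noncoding RNA, had 16 of its 19 windows listed (84.2%, predicted 55.1%). IGF2, the paternally expressed growth factor next to it, had 30 of 58 (51.7%, predicted 53.4%). The density was not particular to H19. MRPL23, the gene on its other side and outside the imprinted lists, had 64 of 75 (85.3%, predicted 67.2%). Of the 40 windows within 20 kb downstream of the main H19 start, the window in which the largest number of H19 transcripts begin (12 of 31), 39 were listed. Upstream of it 28 of 40 were listed. The window of this start was not, although its composition, with 18 CpG sites, gave a predicted 77.1%. The window in which 11 further transcripts begin (2022501 to 2023000) was listed.

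The stretch with the 5 CTCF core matches upstream of H19 had 6 of its 7 windows listed (85.7%, interval 48.7 to 97.4, predicted 56%). The matches lay 2126, 2938, 4371, 4772 and 5177 bp upstream of the main H19 start. The window of the match at 4371 bp was not listed and those of the other 4 were. The 5 windows had 20 to 28 CpG sites, and all of their 50-base sequences occur once in the genome. In the annotation used, a long H19 transcript covers this stretch, so that it counts as part of the H19 gene above.

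KCNQ1, a maternally expressed potassium channel gene, had 327 of 809 windows listed (40.4%, predicted 39.8%). Its windows fell into separate stretches. Where KCNQ1OT1, the paternally expressed antisense RNA, runs through the gene, 18 of 205 windows were listed, a ratio of 0.485 (0.31 to 0.742). In the rest of KCNQ1 it was 309 of 604, a ratio of 1.09 (1 to 1.17). The longest stretch of the domain with no listed window, 35 kb from 2639001 to 2674000, lay inside KCNQ1OT1, and 88% of its 50-base sequences occur once in the genome. The window of the KCNQ1OT1 start, with 53 CpG sites and a predicted share of 32.4%, was not listed. The window just upstream of it was listed, and the nearest listed window downstream was 6 kb away.

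The centromeric end of the domain held the densest bin of 50 kb, with 90 of 100 windows listed against a predicted 55%. SLC22A18, a maternally expressed transporter gene, had 48 of 51 windows listed (94.1%, interval 84.1 to 98, predicted 60.3%). CDKN1C, a maternally expressed inhibitor of cyclin-dependent kinases, had 4 of 5 listed (80%, predicted 21.7%). Its CTCF core match, 641 bp upstream of the main start, lay in a listed window, whereas the match inside KCNQ1OT1 did not. PHLDA2, a maternally expressed gene that restrains placental growth and whose start lies just outside the interval, had 0 of 2 windows listed. Genes of this domain without a place in the imprinted lists varied. TH, the tyrosine hydroxylase gene, had 15 of 16 windows listed (93.8%, predicted 65.9%), ASCL2, a basic helix-loop-helix factor, 5 of 5 (predicted 36.3%), and CD81, a tetraspanin gene, 39 of 43 (90.7%, predicted 63.8%). C11orf21 had 9 of 15 (60%, predicted 59.8%), TSSC4 4 of 7 (57.1%, predicted 60.2%) and the readthrough gene INS-IGF2 32 of 57 (56.1%, predicted 54.8%). TRPM5, a cation channel gene, had 50 of 80 (62.5%, predicted 53.2%), with an interval that includes the predicted share. The same held for TSPAN32, with 26 of 33 (78.8%, predicted 62.4%). The longest run of listed windows of the 7 domains, 37 windows or 18.5 kb, covered most of CD81.

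**Figure D2:**
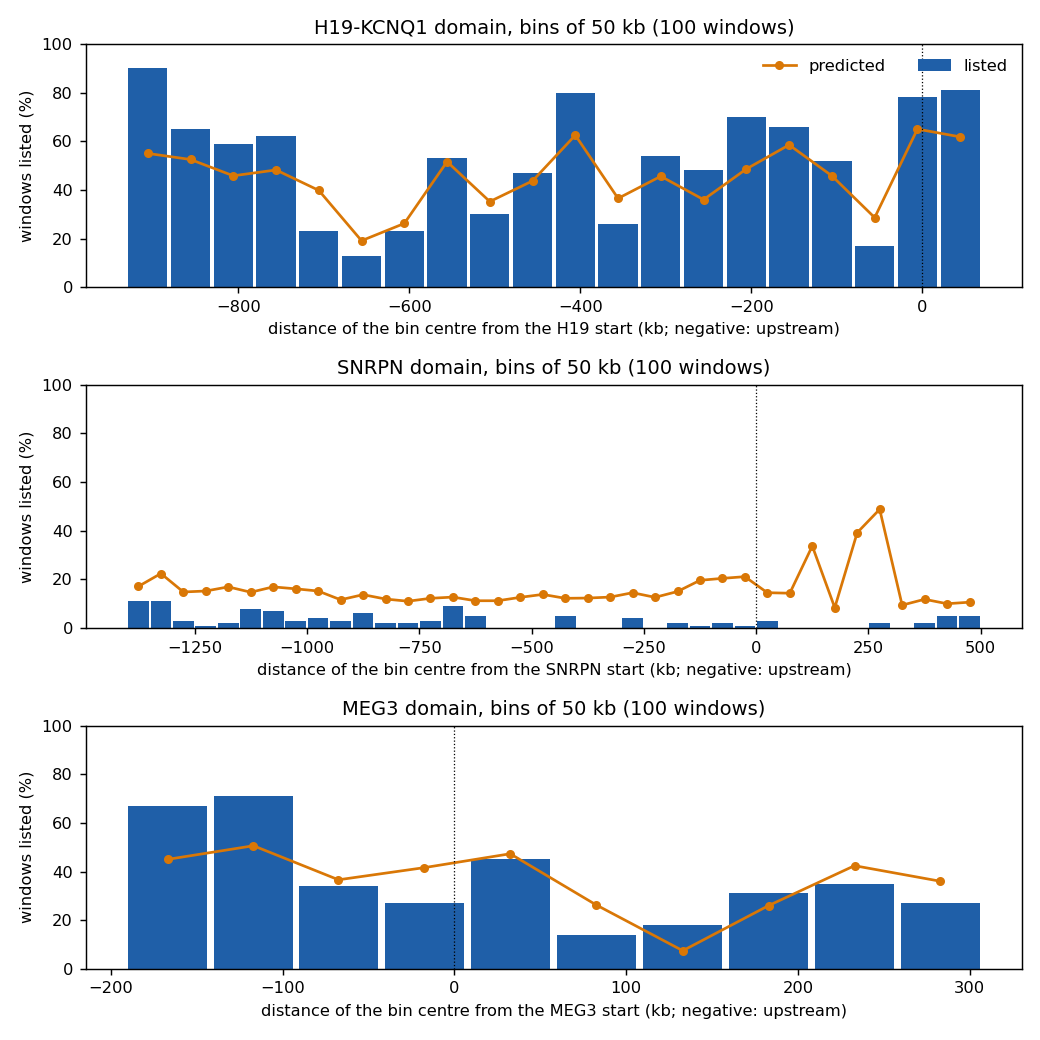
Share of windows listed (bars) and predicted (line) in bins of 50 kb along the H19-KCNQ1, SNRPN and MEG3 domains, by distance of the bin centre from the start of H19, SNRPN or MEG3 (x axis, kb, negative upstream). The bars of the SNRPN domain stay at or below 11%, and the bin with the highest predicted share (48.8%) is at 2%.

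In the SNRPN domain each of 4 stretches had a ratio below 1. From MKRN3 to NDN 9.88% of windows were listed, a ratio of 0.524 (0.357 to 0.758). Between NDN and SNURF, where 84.5% of the 50-base sequences occur once, it was 71 of 2535, a ratio of 0.196 (0.155 to 0.246). From SNURF to the UBE3A gene 5 of 758 were listed against a predicted 23.1%, a ratio of 0.0285 (0.0122 to 0.0663). UBE3A, the ubiquitin ligase gene of Angelman syndrome, taken here as maternally expressed, had 10 of 210, a ratio of 0.478 (0.262 to 0.858). The share was therefore lowest over the transcript that starts at SNURF and SNRPN and runs toward UBE3A.

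The genes of this domain that are expressed from the paternal copy include MKRN3, a RING finger gene, and MAGEL2 and NDN, which belong to the MAGE family. MKRN3 had 15 of 128 windows listed (11.7%, predicted 17.3%) and MAGEL2 5 of 9 (55.6%, predicted 50.1%), and both intervals include the predicted share. Those 5 neighbouring windows of MAGEL2 were the longest listed run of the domain (2.5 kb). NDN had 0 of 4 listed. SNRPN, which encodes a spliceosomal protein, had 4 of 310 (1.29%, predicted 20.6%), and SNURF, the reading frame upstream of it on the same transcript, had 0 of 46 (predicted 18.8%). Within 20 kb of the SNURF start 0 of 80 windows were listed, where 15.3 were predicted. The nearest listed windows were 27 kb upstream and 30 kb downstream. The start window itself had 37 CpG sites and a predicted share of 37.8%, and all its 50-base sequences were unique.

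SNHG14, the long noncoding transcript that hosts the SNORD116 and SNORD115 small nucleolar RNAs, had 12 of 884 windows listed (1.36%, predicted 20.8%). The SNORD116 array had 0 of 114 windows listed (interval 0 to 3.26%) against a predicted 33.3%. The SNORD115 array had 2 of 200 (1%, interval 0.275 to 3.57) against 44.3%. These arrays hold copies of similar sequences, and the study kept reads with 1 position in the genome. Of their 50-base sequences 97% and 92.9% occur once, without mismatches allowed. In windows made of such sequences alone, 0 of 87 and 1 of 120 were listed. The longest stretch of the 7 domains with no listed window, 214 kb from 25246501 to 25460000, covered the SNORD116 array and part of the SNORD115 array.

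**Figure D3:**
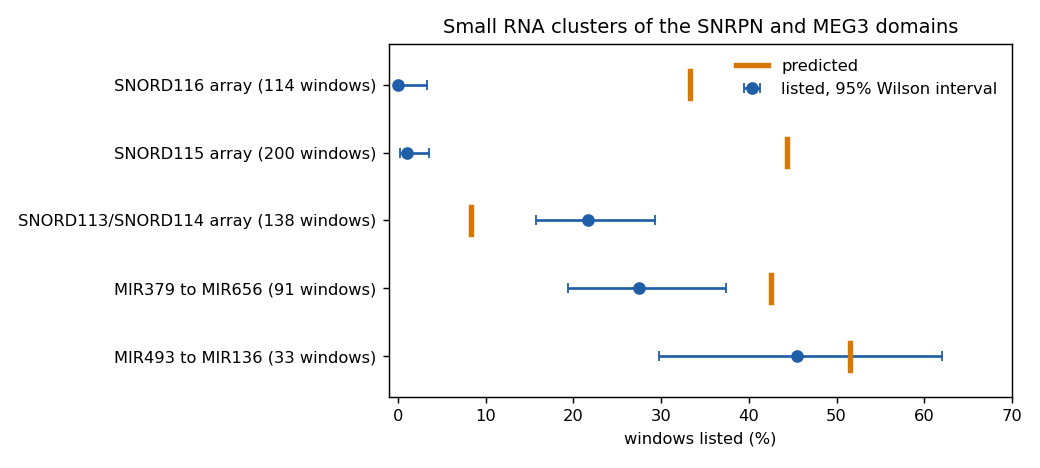
Share of windows listed (points, with 95% Wilson intervals) and predicted (bars) in 5 small RNA clusters. The SNORD116 and SNORD115 arrays of the SNRPN domain lie below the predicted share at 0% and 1%, and the SNORD113 and SNORD114 array of the MEG3 domain lies above it at 21.7%.

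In the small RNA clusters of the MEG3 domain more of the windows were listed. The SNORD113 and SNORD114 array, hosted by MEG8, had 30 of 138 windows listed (21.7%, interval 15.7 to 29.3) against a predicted 8.36%, a ratio of 2.6. The longest stretch of the domain with no listed window, 36 kb from 101380001 to 101416000, covered the beginning of the array with 50 windows. The 30 listed windows lay among the other 88 (34.1%, predicted 8.64%). Because the stretch was chosen for holding no listed window, this share is above that of the array by construction. Of the array's windows that hold a small nucleolar RNA, 16 of 39 were listed (41%, predicted 7.66%). The microRNA cluster from MIR379 to MIR656 had 25 of 91 listed (27.5%, interval 19.4 to 37.4) against 42.5%, a ratio of 0.647. The cluster from MIR493 to MIR136, which overlaps RTL1, had 15 of 33 (45.5%, predicted 51.5%).

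Along the MEG3 domain the share was highest before DLK1. That stretch, which holds no gene of the imprinted lists, had 128 of 184 windows listed, a ratio of 1.46 (1.31 to 1.59). DLK1, a paternally expressed gene for a membrane protein with epidermal growth factor repeats, had 13 of 25 listed (predicted 47.6%). From DLK1 to the main MEG3 start, the stretch that holds the control region between the genes, 65 of 201 windows were listed, a ratio of 0.82 (0.666 to 0.992). MEG3, a maternally expressed noncoding RNA, had 58 of 164 (35.4%, predicted 43.8%). The window of its main start, with 31 CpG sites and a predicted share of 39.8%, was not listed. In the annotation used, the MEG3 gene begins at 101245747, before this main start. Many of its windows therefore also count in the stretch from DLK1 to the main start. RTL1, a paternally expressed gene derived from a retrotransposon, had 13 of 48 (27.1%, predicted 43.3%). The maternally expressed noncoding RNAs MEG8 and MEG9 had 60 of 288 and 26 of 61, close to their predicted 19.5% and 44.6%.

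The GNAS locus expresses different transcripts from each parental copy, and its listed windows were densest downstream of the canonical start, that of the stimulatory G protein alpha subunit. From that start to the end of the gene 28 of 39 windows were listed (71.8%), against a predicted 24.5%, a ratio of 2.93 (2.3 to 3.41). Before it 23 of 103 were listed, a ratio of 0.875 (0.602 to 1.23). The 9 windows from 57468501 to 57473000 formed the longest run. At the starts themselves the picture varied. The windows of the XL start, from 57427501 to 57428500, were listed (predicted 45% and 62.3%). Those of the NESP55 start (57414501 to 57415000), of exon A/B (57463501 to 57465000) and of the canonical start (57466001 to 57466500) were not. The predicted share was 47.2% for the NESP55 start, 17.4% to 36.9% for exon A/B and 5.18% for the canonical start. Of the 8 windows with 40 or more CpG sites within 20 kb of the canonical start, 1 was listed, where 1.99 were predicted. GNAS-AS1, the paternally expressed antisense RNA, had 14 of 64 windows listed (21.9%, predicted 32.4%).

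In the smaller domains the listed windows within 2 kb of the canonical starts were counted over 8 windows each. Of these, 2 were listed at PLAGL1 (1.73 predicted), 2 at both PEG10 and SGCE (3.07 predicted) and 4 at MEST (2.92 predicted). The start window of PLAGL1, a zinc finger factor gene, which is also that of the noncoding RNA HYMAI, had 69 CpG sites and was not listed. Its predicted share was 17.4%. The next window upstream, with 45 and a predicted 36.9%, was listed. The window in which the largest number of PLAGL1 transcripts begin (10 of 27, 144385501 to 144386000) had 51 (predicted 36.9%) and was not listed. In the PLAGL1 body 35 of 248 windows were listed (14.1%, predicted 14.3%). PEG10, a gene derived from a retrotransposon, had its start window listed (40 CpG sites, predicted 32.4%). The neighbouring start of SGCE, the epsilon sarcoglycan gene on the opposite strand, was not listed (32 CpG sites, predicted 48.7%). SGCE had 21 of 265 windows listed (predicted 7.72%) and PEG10 5 of 27 (predicted 23.3%). MEST, a gene of the alpha/beta hydrolase family, had 7 of 41 (predicted 22.9%). Its canonical start window was not listed (predicted 49.7%), and that of its antisense RNA MESTIT1 was (predicted 39.1%).

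Promoters were compared as the study defined them, over the 3000 bp upstream of the canonical start. Of 30 genes of the imprinted lists 20 had a listed promoter window (66.7%), against 74.6% of 19281 protein-coding genes. The 19281 include genes of chromosomes X and Y, which had 12055 and 224 listed windows, whereas the imprinted genes are all autosomal. The 30 include 11 noncoding RNA genes, and of the 19 protein-coding ones 12 had a listed promoter window (63.2%). SNRPN shares its start window with SNURF, and PLAGL1 with HYMAI. The genes without one were mostly in the SNRPN domain. There the paternally expressed MKRN3, MAGEL2, NDN, PWRN1, NPAP1, SNRPN, SNURF and SNHG14 each had 0 of 6 promoter windows listed, and UBE3A had 2 of 6. Outside this domain 11 of 12 paternally expressed genes and 7 of 8 maternally expressed genes had a listed promoter window. The exceptions were PEG10 and MEG8, with 0 of 6 each. The canonical start of MEG3 (101245747) lies upstream of the main MEG3 start described above. At the canonical start 2 of 6 promoter windows were listed, and at the main start 0 of 6. MEG8 had 1 of 6 at its main start. With main starts for all genes the count was also 20 of 30, against 73.5% of protein-coding genes. SLC22A18 had 6 of 6, and CDKN1C had 5. Of the 12 other protein-coding genes with a start in the intervals 11 had one, and CEP41, a centrosomal protein gene, did not.

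The window that holds the start itself was counted next. Of the 30 imprinted genes 5 had the window of the canonical start listed (16.7%, 11.1 windows predicted from composition). Over the 19281 protein-coding genes, those of chromosomes X and Y included, the share was 26.4%. The 5 imprinted genes were H19, SLC22A18, MEG9, PEG10 and MESTIT1. For H19 the canonical start is that of a long transcript (2025782), and the window of the main H19 start was not listed. Of the windows with the largest number of transcripts per gene, 6 of 30 were listed (20%, 11.9 windows predicted), against 27.8% over protein-coding genes. At canonical starts the share over protein-coding genes was also below the one predicted from their composition (34.6%). Around the start windows with the largest number of transcripts, 30% of windows from 0 to 499 bp downstream were listed in the imprinted genes (interval 16.7 to 47.9), against 26.7% in protein-coding genes. From -1000 to -501 bp it was 50% (33.2 to 66.8) against 44.8%.

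Gene by gene, bodies were counted whole, also where SGCE, CEP41 and PHLDA2 run past the intervals. The totals of the lists below count only the windows inside the intervals. The paternally expressed list had 5.98% of 3664 windows listed against a predicted 17.6%, a ratio of 0.34 (0.299 to 0.386). The maternally expressed list had 34.1% of 1608, a ratio of 1.02 (0.948 to 1.09). Of the paternal windows, 2777 lay in the SNRPN domain. Without that domain the paternal ratio was 0.811 (0.7 to 0.935) and the maternal ratio 1.04 (0.969 to 1.11). The 2 lists share windows where their genes overlap. The 205 windows of KCNQ1OT1, with 18 listed, lie inside KCNQ1 and count in both lists. RTL1 overlaps MEG8, and SNHG14 overlaps UBE3A. Genes within a domain are not replicates, so the lists were not tested against each other. The 12 other protein-coding genes had 64.2% of 394 windows listed, a ratio of 1.22 (1.13 to 1.31).

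**Figure D4:**
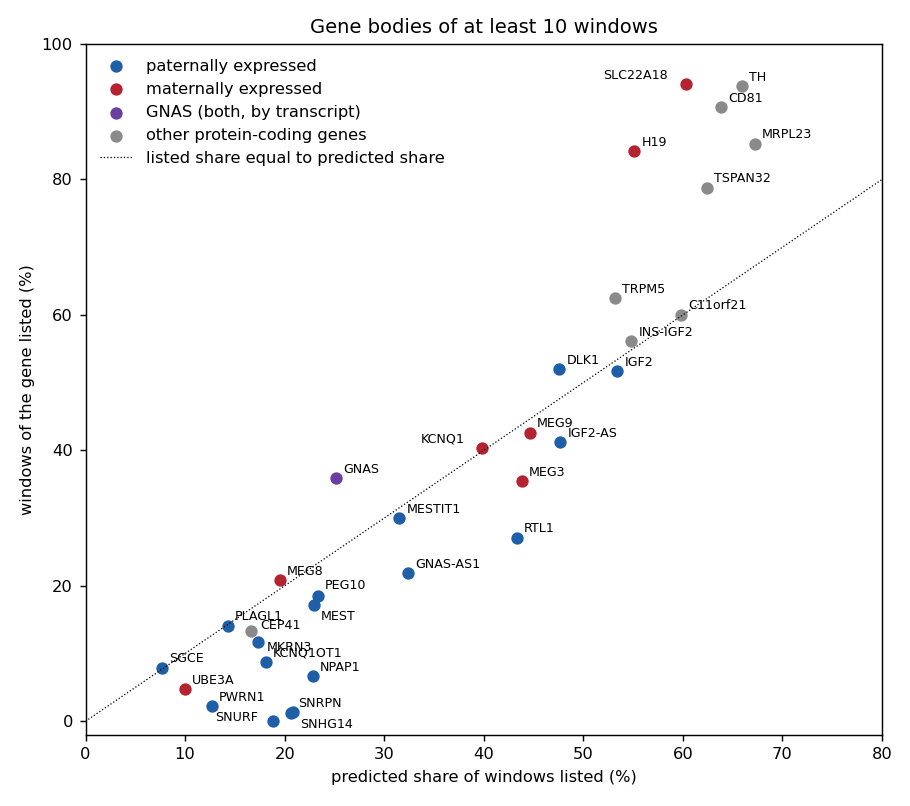
Share of windows listed in each gene body (y axis, %) against the share predicted from CpG number and GC content (x axis, %), for genes of at least 10 windows. SNURF, SNRPN and SNHG14 lie at 0 to 1.36%, and SLC22A18 and H19 lie above the dotted line of equal shares at 94.1% and 84.2%.

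Of the 25 imprinted genes with at least 10 windows, 8 had an interval below the predicted share, against 20.7% of 16071 autosomal protein-coding genes of that size. These were the paternally expressed KCNQ1OT1, RTL1, PWRN1, SNRPN, SNURF and SNHG14 and the maternally expressed UBE3A and MEG3. Of these, KCNQ1OT1, PWRN1, SNHG14 and MEG3 are noncoding RNA genes, whereas the comparison holds protein-coding genes only. PWRN1 (78.2% of its 50-base sequences unique), SNRPN, SNURF, SNHG14 and UBE3A all lie in the SNRPN domain, and SNURF lies within SNRPN. For H19, SLC22A18 and GNAS, 3 of the 25, the interval lay above it, as it did for 35.1% of the autosomal protein-coding genes, and for the other 14 it included it. Of the 8 other protein-coding genes of that size 0 had an interval below, 3 had one above and 5 had one that included the predicted share.

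The domains and the autosomes were also compared by CpG density. Of windows with 0 to 4 CpG sites 4.37% were listed in the domains (interval 3.77 to 5.06, predicted 8.52%), against 8.2% in the autosomes. Of windows with 20 to 39 CpG sites the share was 69.8% (64.5 to 74.5, predicted 57.4%), against 48.5%. Of the 50-base sequences of this class 94.8% occur once in the genome in the domains, against 81.6% in the autosomes. The share at 0 to 4 CpG sites followed the SNRPN domain, where 46 of 2482 such windows were listed. That at 20 to 39 followed the H19-KCNQ1 domain, where it was 175 of 200 (87.5%, predicted 62.9%). In the SNRPN domain windows with 10 to 19 CpG sites were listed in 5.49% of cases, where 42.7% were predicted.

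TGCCGC or its reverse complement was present in 14.6% of the listed windows of the domains and in 3.93% of the others. In the autosomes as a whole 3.61% of windows held it, 6.68% of the listed and 2.95% of the others. The motif contains a CpG site, and in windows with at least 10 CpG sites the shares in the domains were 20.5% and 14.6%, beside 13.5% and 11.5% in the autosomes. The window with most matches, 5, held the PLAGL1 and HYMAI start and was not listed (predicted 17.4%). The CTCF core had 10 matches in the domains, 6 of them in listed windows, and was present in 0.0162% of all autosomal windows. Of the 869 autosomal windows with the core 339 were listed. The windows of the 10 matches had predicted shares from 32.4% to 71%. The windows of the matches beside MAGEL2 and in PLAGL1 were not listed, and that in INS, the insulin gene, was.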

How the data were processed

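Enriched DNA of 4 FADU libraries was sequenced as single-end reads, aligned by the authors to hg19 with Bowtie 0.12.7, reduced to unique and monoclonal reads and counted with MEDIPS in windows of 500 bp. The deposited table gives the window positions and 4 columns of values, whose names match no sample label, so 4 columns of values were not used. Its name points to a minimum count, which the sources used here do not explain. The methods give only a lower bound on the reads per sample, and the depth of each library was not derived here. The fold or p-value of a condition could not be computed, and each condition has 1 library.

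The windows were laid on GRCh37 and annotated with GENCODE 44 lifted to that build, which holds 30 of the 31 listed genes (IPW is missing). A predicted share was taken from the 5368882 autosomal windows without an undetermined base, by CpG number (40 or more as 1 class) and GC content in steps of 25 bases. Wilson intervals of 95% were computed with SciPy 1.17.1. A gene's promoter windows are those with their midpoint in the 3000 bp upstream of its start. The 50-base sequences were compared exactly with both strands of the genome. Motif matches were searched on both strands. Windows of mitochondrial DNA (34) were left out. The steps were tested on simulated data. The domains and gene lists were chosen with earlier results of these data known, and the genes named are those of the lists, with the other protein-coding genes of the intervals. Alternatives were another prediction, unique windows, longer intervals and other starts. No genomic input library was analysed here. Sequences upstream of other starts are not reported here.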

Additional observations from a re-analysis of the deposited data

How the results depend on the processing

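The values below are ratios to the predicted share unless another quantity is named. For all 7 domains the ratio turned from 0.824 to 1.22 with no prediction and to 1.09 without the SNRPN domain. It was 0.937 with CpG number alone, 0.705 with a prediction from the same chromosome, 0.86 in windows of unique sequence, 0.873 with intervals lengthened by 100 kb on each side and 0.937 with a prediction from the flanks within 5 Mb. It was 0.573 without the H19-KCNQ1 domain and 0.781 without the MEG3 domain. For the H19-KCNQ1 domain (1.14) it was 1.51 with CpG number alone, 2.95 with no prediction, 1.05 from the same chromosome and 1.05 in windows of unique sequence. For the SNRPN domain (0.183) it was 0.164 in windows of unique sequence and 0.398 from the flanks, of whose 50-base sequences 66.3% occur once. For the MEG3 domain (1.03) it was 1.22 with CpG number alone, 2.1 with no prediction, 0.713 from the same chromosome and 0.756 from the flanks. With no prediction the GNAS domain was at 1.9 and the PEG10 domain at 0.569. Over gene bodies the paternally expressed list (0.34) was at 0.297 from the same chromosome and 0.811 without the SNRPN domain. The maternally expressed list (1.02) was at 1.22 with CpG number alone and 0.838 from the same chromosome. The other genes were at 1.67 and 1.13. The share with TGCCGC in listed over other windows of the domains was 3.72, and 1.4 in windows with at least 10 CpG sites. For the CTCF core it was 5.48 and 1.25. The cause of these changes was not tested.

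The ratio of the SNRPN domain stayed below 1 under every alternative run. The counts of promoters (17 to 21 of 30) and starts (5 to 7 of 30) and the ratios of the small RNA clusters kept within the limits set for a change. The prediction from the flanks, the start window with the largest number of transcripts and the lists without the SNRPN domain were added after seeing the data, by choice. With single libraries, leaving 1 out was not run, nor were values per library. No paired analysis was possible because the columns of values could not be tied to conditions. The minimum behind the table limits what a window that is not listed can show, and the depth of each library was not derived.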
